A study of Mus musculus with 48 samples.

Results

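The cryptochromes *Cry1* and *Cry2* were the 2 genes described here, taken by their gene names from the 56748 genes of the deposited expression tables. Both were measured by RNA sequencing in the tibialis anterior, a fast muscle of the lower leg, of 48 male mice aged 39 to 55 weeks, with 1 library per mouse. The mice were wild type (WT) or carried FoxP1fl/fl alleles with an ACTA1-Cre transgene (FoxP1SkmKO), in which Cre is driven by the promoter of skeletal actin. They had received murine KPC pancreatic cancer cells into the pancreas (KPC) or the vehicle alone (control). After entrainment to light and darkness they were moved to constant darkness, and 2 mice per genotype and condition were taken at each of 6 circadian times (CT), CT18, CT22, CT26, CT30, CT34 and CT38. CT18 fell at midnight and CT30 at noon, so that the series covers 1 cycle of 24 h.

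Several features limit these groups as a model. Recombination is driven in muscle fibers, so endothelial, immune and connective tissue cells in the same piece of muscle keep *Foxp1*. In bulk RNA, fewer cells of a type and less RNA per cell cannot be told apart. The labels name the WT mice C57BL/6J, while the design text calls them FoxP1fl/fl mice without Cre. The study's text gives a younger age for these mice in another place. The mRNA of *Foxp1*, the targeted gene, was low in all groups, with means of 0.630 ± 0.140 FPKM (SD, n = 12) in WT controls and 0.578 ± 0.0682 FPKM in FoxP1SkmKO controls. The effect of genotype on it was -0.11 on the log2 scale in controls (edgeR quasi-likelihood test, adjusted p = 0.459) and -0.20 in KPC mice (adjusted p = 0.246). These counts cover the whole gene and not the deleted part alone, so they do not check the genotypes, which are used as labelled. Libraries held between 14480867 and 20787784 reads on genes. Counts of *Cry1* were at least 206 per library and those of *Cry2* at least 527. Summed levels of fast fiber markers, 7 of 7 found, were between 24829 and 33749 FPKM in every library, against 9.74 to 40.8 FPKM for 6 slow fiber markers. Markers of macrophages (6 genes) summed to between 5.21 and 34.0 FPKM and those of adipocytes (5 genes) to between 0.531 and 28.9 FPKM, with overlapping ranges in all 4 combinations of genotype and condition. Ranges also overlapped for endothelial (4 genes, 42.9 to 74.0 FPKM), erythroid (5 genes, 81.7 to 330 FPKM) and Schwann cell markers (3 genes, 11.3 to 36.0 FPKM). The median Schwann cell sum was 21.2 FPKM in WT controls, 18.5 in WT KPC mice, 19.9 in FoxP1SkmKO controls and 14.5 in FoxP1SkmKO KPC mice. The part of these cell types in the values below was not tested.

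Cryptochromes are the strongest repressors of the mammalian clock. The activators BMAL1 (gene *Arntl*) and CLOCK bind E-boxes in the promoters of *Per* and *Cry* genes, and the PER and CRY proteins then enter the nucleus and inhibit BMAL1 and CLOCK until they are degraded. *Cry1* is also held down by the REV-ERB receptors and responds to D-box factors, and its mRNA is known to peak later than that of other E-box genes. The stability of CRY proteins is set by ubiquitination and by kinases such as AMPK.

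*Cry1* (ENSMUSG00000020038) lies on the minus strand of chromosome 10, from 84967564 to 85020928, and *Cry2* (ENSMUSG00000068742) on the minus strand of chromosome 2, from 92233991 to 92264388, both in the build mm39 of the deposited tables. Both are protein coding. The 250 bases before each start site are shown because BMAL1 and CLOCK bind E-boxes in promoters. They come from the RefSeq promoter table of another build, GRCm38.p6, so their positions are not comparable with those of the tables. The *Cry1* stretch is chr10:85185055-85185304 and the *Cry2* stretch chr2:92434070-92434319, both minus strand and written 5′ to 3′ along the gene. Capitals mark matches to 5 sequences searched on both strands, the E-box CACGTG, a variant E-box CACGTT, the D-box TTATGTAA, the nuclear receptor site AGGTCA and the forkhead sequence TGTTTAC.
Cry1: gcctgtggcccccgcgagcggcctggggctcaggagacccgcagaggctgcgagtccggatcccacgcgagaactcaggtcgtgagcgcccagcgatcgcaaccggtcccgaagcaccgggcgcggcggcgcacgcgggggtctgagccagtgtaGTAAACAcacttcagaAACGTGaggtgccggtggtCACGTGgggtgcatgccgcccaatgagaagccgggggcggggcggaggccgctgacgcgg
Cry2: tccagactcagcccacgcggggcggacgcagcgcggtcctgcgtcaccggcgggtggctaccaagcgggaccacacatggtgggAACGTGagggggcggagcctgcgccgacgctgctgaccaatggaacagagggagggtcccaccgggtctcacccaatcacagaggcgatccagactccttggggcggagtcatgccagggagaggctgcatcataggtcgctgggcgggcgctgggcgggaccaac

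The *Cry1* stretch held 3 matches. The canonical E-box CACGTG stood between 60 and 55 bases before the start, and the variant E-box, read on the opposite strand as AACGTG, between 79 and 74 bases before it. A forkhead match, read as GTAAACA, stood between 95 and 89 bases before the start. The *Cry2* stretch held only the variant E-box among the 5 sequences searched, between 166 and 161 bases before the start. Over all 32851 windows of the table, which reach 250 bases before and 50 after a start, 7.15% held the E-box, 4.68% the variant E-box and 3.65% the forkhead sequence. The D-box was found in 0.938% and the nuclear receptor site in 16.3% of the windows, and in neither cryptochrome. A match is a description of letters and not a bound site.

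*Cry1* and *Cry2* mRNA followed the time of day in every combination of genotype and condition, with different times of peak and trough. In the means over all mice, *Cry1* was high in the subjective night, at CT18 and CT22, and lowest at CT30. *Cry2* was lowest at CT22 and high in the late subjective day, at CT34. Single combinations departed from this, with *Cry1* lowest at CT34 in FoxP1SkmKO controls and *Cry2* lowest at CT26 in WT controls. In FoxP1SkmKO controls *Cry1* was also higher at CT38 (mean 6.60 FPKM) than at CT18 (6.42 FPKM). The mean of *Cry1* over 8 mice fell from 6.96 ± 0.552 FPKM (SD) at CT18 to 4.58 ± 0.50 FPKM at CT30, a ratio of 1.52 between the highest and lowest time. That of *Cry2* ran from 5.50 ± 0.711 FPKM at CT22 to 9.99 ± 0.321 FPKM at CT34, a ratio of 1.82.

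In WT controls, *Cry1* was 7.37 and 6.49 FPKM at CT18, 6.45 and 7.12 at CT22, 5.50 and 5.22 at CT26, 4.03 and 4.50 at CT30, 4.45 and 4.22 at CT34, and 5.95 and 5.39 at CT38. All 4 mice of CT18 and CT22 were above the 8 mice of the other times. In WT KPC mice it was 6.85 and 7.33 FPKM at CT18, 6.76 and 6.91 at CT22, 5.30 and 5.07 at CT26, 3.73 and 5.08 at CT30, 5.15 and 5.56 at CT34, and 6.31 and 6.68 at CT38. The pair of CT30 was the most spread and held the lowest mouse.

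In FoxP1SkmKO controls, *Cry1* was 6.95 and 5.89 FPKM at CT18, 6.38 and 7.49 at CT22, 5.58 and 4.89 at CT26, 4.74 and 5.06 at CT30, 4.31 and 5.02 at CT34, and 7.28 and 5.91 at CT38. Here the pairs of CT18, CT22 and CT38 overlapped and were each over 1 FPKM apart. In FoxP1SkmKO KPC mice it was 7.26 and 7.56 FPKM at CT18, 6.93 and 6.36 at CT22, 4.00 and 5.65 at CT26, 5.03 and 4.45 at CT30, 5.17 and 5.60 at CT34, and 6.63 and 6.17 at CT38. The 6 mice of CT18, CT22 and CT38 were all above the 6 mice of the other times.

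In WT controls, *Cry2* was 6.69 and 6.44 FPKM at CT18, 5.56 and 6.41 at CT22, 5.37 and 5.49 at CT26, 8.30 and 8.19 at CT30, 10.2 and 10.01 at CT34, and 8.00 and 8.69 at CT38. The step between CT26 and CT30 separated the low from the high mice with no overlap. In WT KPC mice it was 6.72 and 6.29 FPKM at CT18, 4.61 and 6.55 at CT22, 6.26 and 6.39 at CT26, 8.36 and 8.41 at CT30, 10.3 and 9.84 at CT34, and 8.92 and 8.39 at CT38. The same step was present, and the pair of CT22 was the widest.

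In FoxP1SkmKO controls, *Cry2* was 6.50 and 6.12 FPKM at CT18, 5.03 and 4.77 at CT22, 6.26 and 6.11 at CT26, 8.63 and 7.96 at CT30, 9.88 and 9.83 at CT34, and 6.93 and 7.25 at CT38. In FoxP1SkmKO KPC mice it was 6.23 and 6.86 FPKM at CT18, 5.37 and 5.67 at CT22, 7.66 and 7.81 at CT26, 9.26 and 9.05 at CT30, 10.5 and 9.44 at CT34, and 7.19 and 6.72 at CT38. In this last combination the level at CT26 was already above that at CT38. In FoxP1SkmKO controls and in WT mice of either condition it was below.

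**Figure D1:**
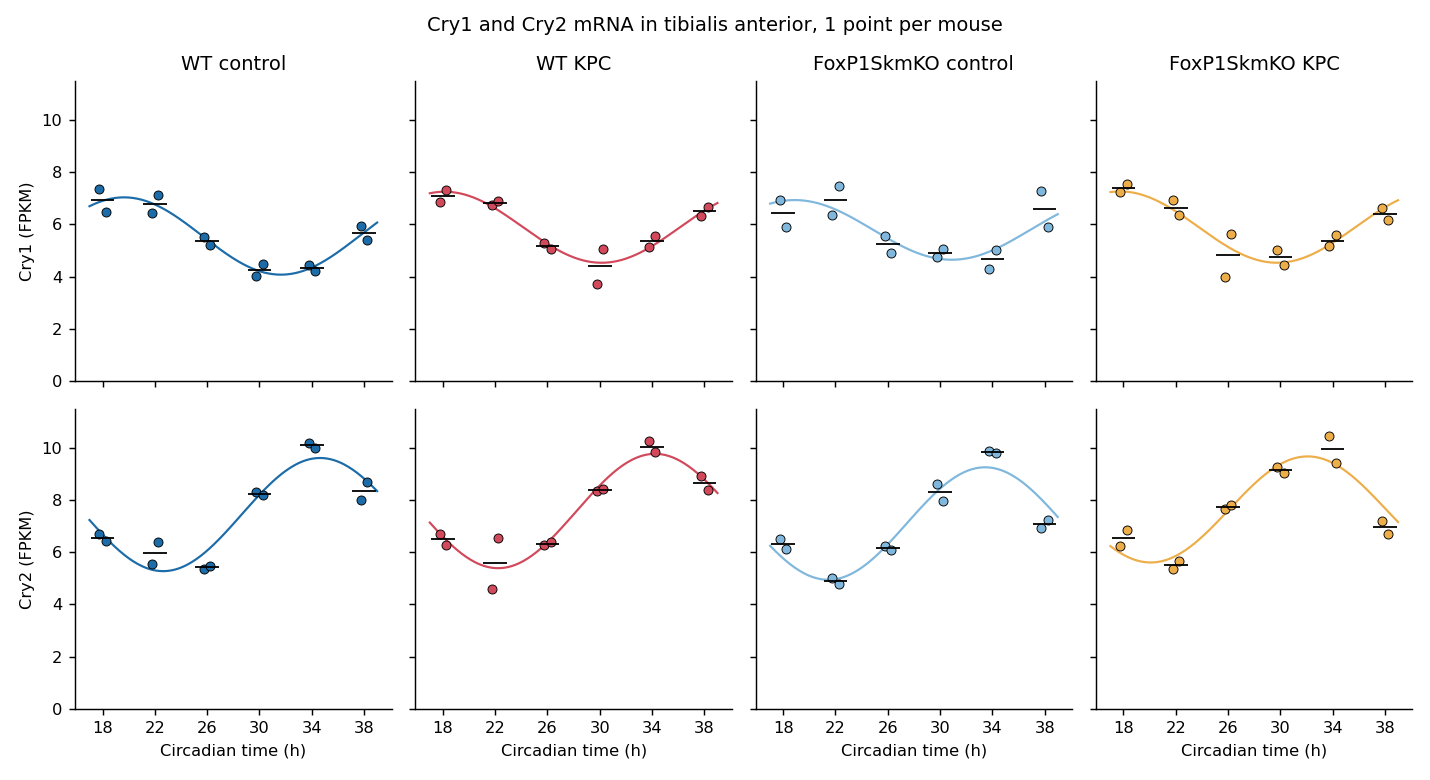
FPKM of *Cry1* (top) and *Cry2* (bottom) against circadian time in hours for WT and FoxP1SkmKO mice without and with KPC tumors. Each point is 1 mouse, each bar the mean of 2 mice and each line the fitted 24 h curve, and the highest means were 7.41 FPKM for *Cry1* at CT18 and 10.1 FPKM for *Cry2* at CT34.

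Differences between times were tested in edgeR with all 48 libraries in 1 fit, averaging the 4 combinations. Of 15 pairs of times, 9 differed for *Cry1* and 13 for *Cry2* at an adjusted p under 0.05, among 15637 genes tested. Against CT18, 8.22% of all genes were called at CT22, 22.2% at CT26, 18.6% at CT30, 21.3% at CT34 and 16% at CT38. Against CT22, 1.96% were called at CT26, 13% at CT30, 19% at CT34 and 9.98% at CT38. Against CT26 these shares were 17.7% at CT30, 23.6% at CT34 and 17.5% at CT38, and they were 1.84% between CT30 and CT34, 7.32% between CT30 and CT38 and 2.91% between CT34 and CT38. In order of mean level, *Cry1* stood at CT18, CT22, CT38, CT26, CT34 and CT30. Among neighbors in that order, only CT38 against CT26 differed beyond the spread (log2 difference 0.28, SE 0.069, adjusted p = 0.00365). CT22 against CT18 had adjusted p = 0.916, CT38 against CT22 had 0.306, CT34 against CT26 had 0.556, and CT34 against CT30 had 0.651. In order of mean level, *Cry2* stood at CT34, CT30, CT38, CT18, CT26 and CT22. CT34 exceeded CT30 by 0.23 (SE 0.048, adjusted p = 0.00512), CT38 exceeded CT18 by 0.26 (SE 0.049, adjusted p = 0.000243), and CT26 exceeded CT22 by 0.21 (SE 0.049, adjusted p = 0.0194). CT38 against CT30 had adjusted p = 0.0644 and CT26 against CT18 had 0.878. The step of *Cry2* between CT22 and CT26 had adjusted p = 0.0637 without WT control replicate 1 of CT22, 0.0504 without FoxP1SkmKO control replicate 2 of CT22 and 0.0529 without FoxP1SkmKO KPC replicate 1 of CT22. *Cry1* at CT30 against CT26 had adjusted p = 0.0948 with all mice and 0.0191 without FoxP1SkmKO KPC replicate 1 of CT26 or 0.0229 without WT KPC replicate 2 of CT30.

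Within each combination alone, both genes again differed between times (edgeR, 6 times together). The adjusted p of *Cry1* was 0.000447 in WT controls, 0.00495 in WT KPC mice, 0.0134 in FoxP1SkmKO controls and 0.00738 in FoxP1SkmKO KPC mice. The adjusted p of *Cry2* was at most 1.04e-06. Of all genes tested, 18.7%, 11%, 6.4% and 5.99% were called in these combinations, in that order. Of the 17 core clock partners, 16, 14, 14 and 16 were called.

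The rhythm was then described by a least-squares curve with a period of 24 h, which gives a basal level (the mean of the curve), an amplitude (the distance from mean to peak) and a peak time. *Cry1* and *Cry2* had p under 0.01 for a rhythm in all 4 combinations (F test on 12 mice per combination; of all genes with a value, 4.92% did so in WT controls, 4.22% in WT KPC mice, 4.07% in FoxP1SkmKO controls and 2.63% in FoxP1SkmKO KPC mice). After adjustment over all genes, both genes passed 0.05 in WT controls and WT KPC mice, *Cry2* alone in FoxP1SkmKO controls and neither in FoxP1SkmKO KPC mice, where 0.551%, 0.475%, 0.414% and 0.116% of genes did so. With the same F test adjusted only over genes with a mean of at least 1 FPKM, *Cry2* also passed in FoxP1SkmKO KPC mice (adjusted p = 0.0260). *Cry1* still did not pass there (adjusted p = 0.0520) or in FoxP1SkmKO controls (adjusted p = 0.104). The R2 of the curve, the part of the variance it took up, was 0.933 for *Cry1* in WT controls, 0.883 in WT KPC mice, 0.648 in FoxP1SkmKO controls and 0.821 in FoxP1SkmKO KPC mice. For *Cry2* it was 0.892, 0.918, 0.899 and 0.869. By R2, *Cry1* ranked 22 in WT controls, 58 in WT KPC mice, 874 in FoxP1SkmKO controls and 83 in FoxP1SkmKO KPC mice among the 10007 genes with a mean of at least 1 FPKM, and *Cry2* ranked between 18 and 61 in the 4 combinations.

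The weakest of these 8 rhythms was that of *Cry1* in FoxP1SkmKO controls, with an amplitude of 1.14 FPKM (SE 0.281) around 5.79 FPKM (F test, n = 12, p = 0.00912, adjusted p = 0.238). Without single mice of that combination its p was between 0.00329 and 0.0256, and it was over 0.01 in 10 of 12 cases, highest without replicate 1 of CT18. In WT controls the amplitude of *Cry1* was 1.48 FPKM (SE 0.133), or 26.7% of its basal level, and the difference between the genotypes was -0.338 FPKM (95% interval -0.991 to 0.315, likelihood ratio test, n = 12 per group, p = 0.294). The amplitude of *Cry2* was 2.17 FPKM (SE 0.252) in WT controls, 2.19 (SE 0.218) in WT KPC mice, 2.16 (SE 0.241) in FoxP1SkmKO controls and 2.03 (SE 0.263) in FoxP1SkmKO KPC mice. It was between 26.6% and 30.4% of the basal level in the 4 combinations.

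The peak of *Cry1* was fitted at CT19.6 (SE 0.342 h) in WT controls, CT18.1 (SE 0.464 h) in WT KPC mice, CT18.9 (SE 0.939 h) in FoxP1SkmKO controls and CT17.7 (SE 0.594 h) in FoxP1SkmKO KPC mice. The peak of *Cry2* was fitted at CT34.6 (SE 0.444 h), CT34.2 (SE 0.379 h), CT33.4 (SE 0.427 h) and CT32.1 (SE 0.494 h) in the same order. The peak of *Cry2* relative to the next peak of *Cry1* was at -9.01, -7.91, -9.44 and -9.66 h, so that *Cry2* led in every combination. For both genes the latest peak was that of WT controls and the earliest that of FoxP1SkmKO KPC mice.

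The differences in basal level, amplitude and peak time were tested for both genes with tumor and with genotype, 24 tests in all, by likelihood ratio tests in which each group had its own variance (n = 12 mice per group). For basal level, amplitude and peak time, 8.7%, 2.15% and 1.91% of all genes had p under 0.05 with tumor in WT mice and 6.87%, 1.27% and 2.09% in FoxP1SkmKO mice. With genotype these shares were 10.1%, 1.67% and 1.87% in controls and 6%, 1.36% and 1.39% in KPC mice. After adjustment they were 0% except for basal level with genotype in controls, at 0.324%. With adjustment over all genes, none of the 24 passed for the cryptochromes, and the smallest adjusted p was 0.546. Before adjustment 4 had p under 0.05. The largest was the peak of *Cry2*, 2.14 h earlier in FoxP1SkmKO KPC than in WT KPC mice (95% interval of the shift -3.45 to -0.832 h, n = 12 per group, p = 0.00409, adjusted p = 0.985). Without single mice this shift was between -2.37 and -1.74 h, with p between 0.00113 and 0.0122. The other peak shift was that of *Cry1*, 1.51 h earlier with KPC tumors in WT mice (95% interval -2.72 to -0.298 h, n = 12 per group, p = 0.0196, adjusted p = 0.943). Without CT26, left out after the data were seen because WT KPC and control mice differed in the most genes there, these shifts were -1.92 h (n = 10 per group, p = 0.0501) and -1.49 h (p = 0.0993).

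In controls, the peak of *Cry2* was fitted 1.19 h earlier in FoxP1SkmKO than in WT mice (95% interval -2.48 to 0.106 h, n = 12 per group, p = 0.0708). With KPC tumors it was fitted 1.36 h earlier in FoxP1SkmKO mice (95% interval -2.74 to 0.00815 h, n = 12 per group, p = 0.0528) and 0.409 h earlier in WT mice (95% interval -1.64 to 0.817 h, p = 0.493). With log2(FPKM + 1) in place of FPKM, the first of these 3 shifts had p = 0.0484 and the second p = 0.0386 (n = 12 per group). For *Cry1* the shift in FoxP1SkmKO mice with KPC tumors was -1.14 h (95% interval -3.48 to 1.19 h, n = 12 per group, p = 0.322).

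The other genes of the clock give the setting of these shifts. Of the core clock partners with a rhythm at p under 0.01 in both groups compared, 11 of 12 were fitted earlier with KPC tumors in WT mice and 12 of 13 in FoxP1SkmKO mice. Between genotypes, 12 of 13 were earlier in FoxP1SkmKO controls than in WT controls, and 10 of 13 in FoxP1SkmKO KPC than in WT KPC mice. Their median shifts were -0.70, -0.73, -0.81 and -0.78 h. Over all genes with a rhythm in both groups the medians were -0.47, -0.49, -0.47 and -0.54 h, with 230 of 344, 145 of 228, 261 of 400 and 143 of 216 genes earlier. The 4 comparisons share groups of mice, and these counts carry no test. *Cry2* shifted more than the median of the clock partners in the same comparison with genotype in both conditions and with tumor in FoxP1SkmKO mice. *Cry1* did so with tumor in both genotypes. The shift of *Cry2* with tumor in WT mice was smaller than that median (-0.41 h). So were those of *Cry1* with genotype in controls (-0.76 h) and KPC mice (-0.39 h). Among these partners, *Nfil3* alone shifted further than *Cry1* with tumor in WT mice (-1.63 h).

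**Figure D2:**
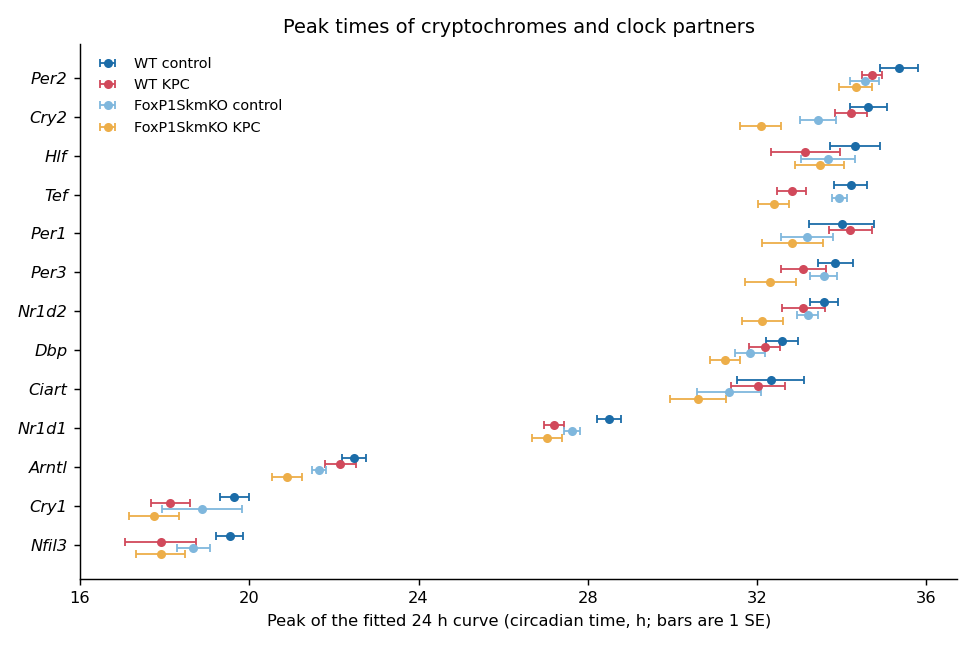
Fitted peak time (circadian time in hours, bars are 1 SE) of *Cry1*, *Cry2* and the 11 core clock partners with p under 0.01 in all 4 combinations. *Cry1* sits beside *Nfil3* at the lower left, *Cry2* beside *Per2* and *Hlf* at the upper right, and the points of FoxP1SkmKO KPC mice lie to the left of those of WT controls for all 13 genes.

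The next question was whether a KPC tumor changed the level of the cryptochromes, and whether this depended on *Foxp1* in muscle fibers. Averaged over the 6 times, no such effect passed the test for either gene in either genotype. In WT mice *Cry1* was 1.06 times as high with tumor (log2 change 0.09, SE 0.057, edgeR adjusted p = 0.483) and *Cry2* 1.02 times (0.03, SE 0.040, adjusted p = 0.795), where 1.79% of all genes were called. In FoxP1SkmKO mice the ratio was 1.02 for *Cry1* (0.03, SE 0.056, adjusted p = 0.908) and 1.08 for *Cry2* (0.11, SE 0.040, unadjusted p = 0.00698, adjusted p = 0.188), where 0.428% were called. The 95% intervals of these 4 log2 changes reached from -0.03 to 0.21 and from -0.05 to 0.11 in WT mice and from -0.09 to 0.14 and from 0.03 to 0.19 in FoxP1SkmKO mice.

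The effect of tumor in WT minus that in FoxP1SkmKO mice was 0.06 for *Cry1* (SE 0.080, adjusted p = 0.927) and -0.09 for *Cry2* (SE 0.056, adjusted p = 0.838), and none of the 15637 genes tested in edgeR passed (1020 had an unadjusted p under 0.05), nor did any of 33218 genes in DESeq2 (839 had one). Of the 17 core clock partners, 2 were higher with tumor in WT mice and none lower, where 1.79% of all genes were called. None passed in FoxP1SkmKO mice, where 0.428% of all genes were called. The 2 called in WT mice were *Per1*, the partner of the cryptochromes in the repressor complex (log2 change 0.61, SE 0.135, adjusted p = 0.0159), and *Bhlhe40*, a repressor that competes for E-boxes (0.30, SE 0.068, adjusted p = 0.0186). The median over the 17 partners was 0.05 in WT mice, against 0.00 over all genes. At single times, 3 partners were called, all higher with tumor at CT26 in WT mice, *Per1* (1.71, SE 0.364, adjusted p = 0.00301), *Per2* (1.09, SE 0.278, adjusted p = 0.0130) and *Per3* (0.46, SE 0.134, adjusted p = 0.0295). In that comparison 7.17% of all genes were called.

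At single times none of the 24 tests of tumor against control passed for the cryptochromes in edgeR or in DESeq2, and 3 had an unadjusted p under 0.05 in edgeR. Of all 15637 genes, 3342 had an unadjusted p under 0.05 at CT26 in WT mice, 948 at CT34 in WT mice and 1392 at CT26 in FoxP1SkmKO mice, the comparisons in which these 3 lie. These are comparisons of 2 mice with 2, and the share of all genes called in edgeR was 7.17% at CT26 in WT mice. In WT mice it was 0.0064% at CT30, 0.0256% at CT38 and 0% at the other times, and in FoxP1SkmKO mice 0.0192% at CT18, 0.0384% at CT26, 0.0064% at CT38 and 0% at the other times. *Cry2* at CT26 had the smallest unadjusted p in FoxP1SkmKO mice, 7.66 and 7.81 FPKM with tumor against 6.26 and 6.11 without (log2 change 0.32, SE 0.097, unadjusted p = 0.00257 and adjusted p = 0.300 in edgeR). In WT mice at CT26 it was 6.26 and 6.39 FPKM with tumor against 5.37 and 5.49 without (0.21, SE 0.099, adjusted p = 0.198, the smallest adjusted p of the 24). In both genotypes both tumor-bearing mice were above both controls at that time. The same held for *Cry2* at 2 of 6 times in WT and 3 of 6 in FoxP1SkmKO mice, CT26 included. For *Cry1* it held at 2 of 6 times in each genotype, and both were below both controls at 0 of 6 times for either gene. How many of all genes separate in this way was not counted, so no effect of tumor is read from it. *Cry1* at CT34 was 5.15 and 5.56 FPKM with tumor against 4.45 and 4.22 without in WT mice (0.31, SE 0.142, adjusted p = 0.795), and 5.17 and 5.60 FPKM against 4.31 and 5.02 in FoxP1SkmKO mice (0.21, SE 0.142, adjusted p = 1.0). On the scale of basal FPKM, *Cry1* was 0.336 higher with tumor in WT mice (95% interval 0.0213 to 0.651, n = 12 per group, p = 0.0385). With log2(FPKM + 1) or log2(FPKM + 0.1) in place of FPKM, this difference did not pass 0.05 (n = 12 per group, p = 0.0536 and p = 0.0585). On the FPKM scale the p was over 0.05 without 14 of the 24 mice in turn, and highest, at 0.0764, without WT KPC replicate 2 of CT30. The basal level of *Cry2* was 0.540 FPKM higher with tumor in FoxP1SkmKO mice (95% interval 0.00995 to 1.07, n = 12 per group, p = 0.0464). That p was over 0.05 without 15 of the 24 mice in turn, and highest, at 0.0899, without FoxP1SkmKO KPC replicate 2 of CT18.

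**Figure D3:**
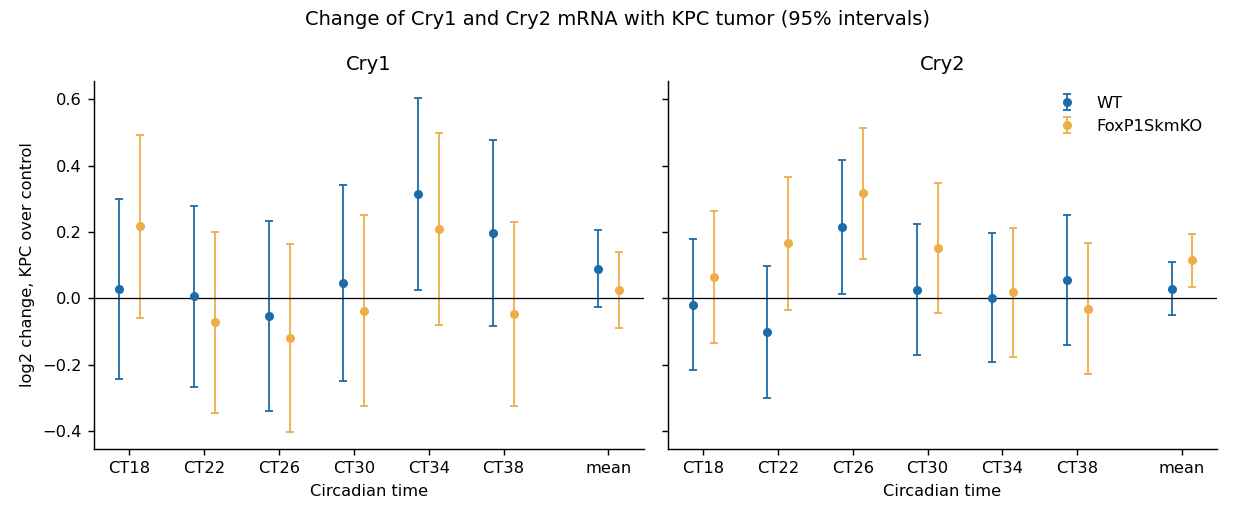
Log2 change of *Cry1* (left) and *Cry2* (right) mRNA in KPC over control mice at each circadian time and as the mean of the 6 times, with 95% intervals from edgeR, for WT and FoxP1SkmKO mice. Single-time changes lie between -0.12 and 0.32, and both genotypes are highest for *Cry2* at CT26.

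Genotype alone moved the cryptochromes as little. In controls, FoxP1SkmKO minus WT was 0.07 for *Cry1* (SE 0.057, adjusted p = 0.610) and -0.07 for *Cry2* (SE 0.040, adjusted p = 0.344) on the log2 scale, where 3.44% of all genes were called. In KPC mice it was 0.00 (SE 0.056, adjusted p = 1.0) and 0.01 (SE 0.040, adjusted p = 0.953), where 0.32% were called. Among the clock partners, *Per1* was higher in FoxP1SkmKO controls (0.75, SE 0.135, adjusted p = 0.00123), and the other 16 did not pass.

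Because FPKM scales each gene by its annotated length, the levels of both genes can be set against each other within a mouse. These lengths were 3340 bases for *Cry1* and 6320 for *Cry2*, and the lengths expressed in muscle were not measured. Which gene exceeds the other depends on them, since raw counts were at most 521 for *Cry1* and at least 527 for *Cry2*. *Cry1* exceeded *Cry2* in 7 of 8 mice at CT18 and in 8 of 8 at CT22, with a median ratio of 1.21 at CT22. It did so in 1 of 8 mice at CT26 and 1 of 8 at CT38, and in none at CT30 or CT34, where the median ratios were 0.546 and 0.498. The log2 ratio followed a 24 h curve in each combination, with an amplitude of 0.74 (SE 0.059) in WT controls, 0.67 (SE 0.073) in WT KPC mice, 0.69 (SE 0.101) in FoxP1SkmKO controls and 0.69 (SE 0.077) in FoxP1SkmKO KPC mice. Its permutation p over 12 mice and 100000 resamples was 1e-05, the smallest these can give, in WT controls, 7.0e-05 in WT KPC mice, 0.00033 in FoxP1SkmKO controls and 0.00052 in FoxP1SkmKO KPC mice. The ratio was highest at CT21.3, CT20.4, CT20.5 and CT18.9 in these combinations.

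**Figure D4:**
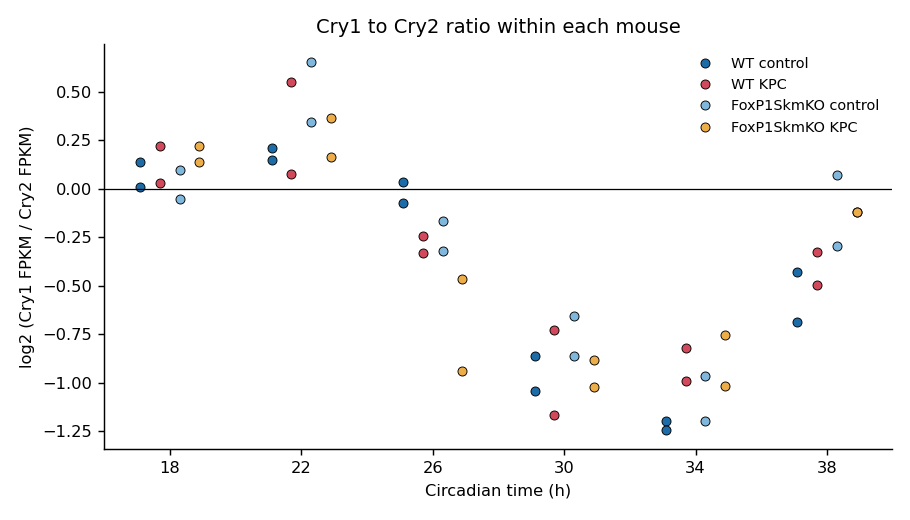
Log2 of *Cry1* over *Cry2* FPKM within each mouse against circadian time in hours, with 1 point per mouse and colors for the 4 combinations of genotype and condition. Points lie above 0 at CT22 in all 8 mice and below 0 at CT30 and CT34 in all 16.

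The genes whose levels ran most like the cryptochromes were sought over the 48 mice by Pearson's r of log2(FPKM + 1) among 15637 genes. The mice share their times of collection, so r mostly reflects the time of day, and no test is given. Closest to *Cry1* were *Ppp1r3c*, a glycogen-targeting subunit of protein phosphatase 1 (r = 0.837, rho = 0.846), *Nfil3*, a repressor at D-boxes (r = 0.834), *Pnpla3*, a lipid droplet protein (r = 0.832), *Slc38a2*, a transporter of neutral amino acids (r = 0.819), and *Myod1*, a myogenic transcription factor (r = 0.803). Without the 2 mice farthest from the median of *Cry1*, these 5 had r between 0.807 and 0.855.

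Closest to *Cry2* were *Usp2*, a deubiquitinase that acts on clock proteins (r = 0.912, rho = 0.912), *Nr1d2*, which encodes REV-ERB beta (r = 0.906), the D-box activator *Tef* (r = 0.900), *Per3* (r = 0.895) and *Per2* (r = 0.886). The activator gene *Arntl* was the most opposite to *Cry2* of all genes (r = -0.923), and the D-box activator *Dbp* the most opposite to *Cry1* (r = -0.800). *Cry1* and *Cry2* had r = -0.582 with each other. *Cry1* was the more alike to *Arntl* (r = 0.577) and *Cry2* to *Per1* (r = 0.767). Of the clock partners, 14 of 17 had a promoter window in the table, and 4 of these held the E-box CACGTG, *Per1*, *Tef*, *Bhlhe41* and *Ciart*. The nuclear receptor site was in 5, the variant E-box in 1, the D-box in 1 and the forkhead sequence in none. Of all 27025 genes with a window, 2187 held the E-box, 4900 the nuclear receptor site and 1470 the variant E-box. The D-box was in 299 of them and the forkhead sequence in 1095.

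**Figure D5:**
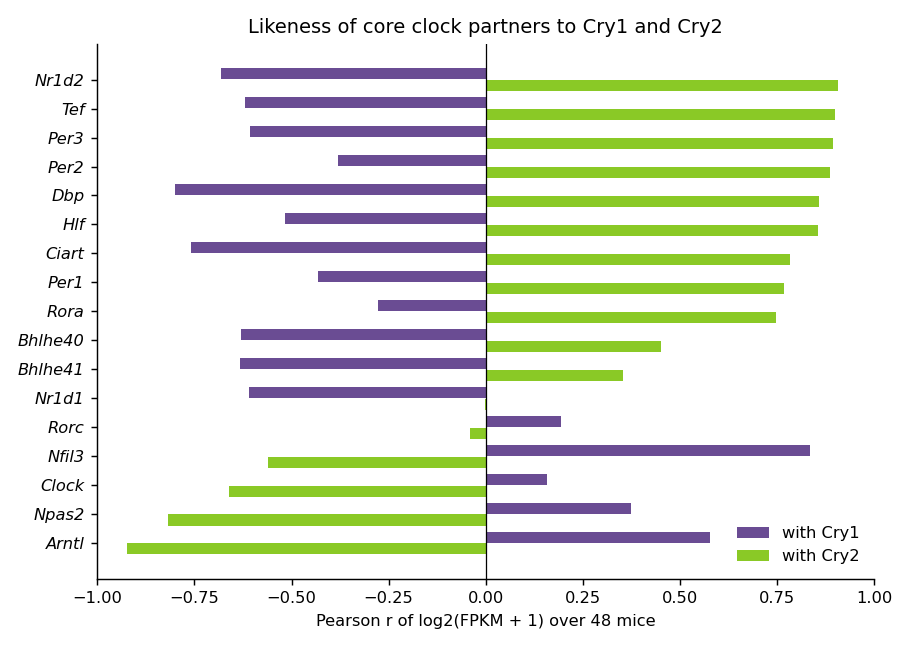
Pearson's r of log2(FPKM + 1) between each of the 17 core clock partners and *Cry1* (purple) or *Cry2* (green) over 48 mice. *Arntl* has r = 0.577 with *Cry1* and -0.923 with *Cry2*, and *Dbp* -0.800 and 0.857.

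Of 13 regulators of cryptochrome protein, 12 had enough reads to be tested, and *Fbxl21* did not. None of the 12 changed with tumor or genotype in the averages over 6 times (edgeR, adjusted p under 0.05), with medians between -0.03 and 0.03 on the log2 scale. An unadjusted p under 0.05 was found for 3 of them with tumor in FoxP1SkmKO mice, 2 with genotype in controls and 2 with genotype in KPC mice, where 1936, 2682 and 1688 of all 15637 genes had one. At CT26 in WT mice, 2 of the 12 were called with tumor, *Prkaa2* higher (log2 change 0.36, SE 0.101, adjusted p = 0.0231) and *Skp1*, a subunit of ubiquitin ligases, lower (-0.34, SE 0.081, adjusted p = 0.00817). In that comparison 7.17% of all genes were called. None of the 12 was called at the other single times. With time, 7 of 12 differed in WT controls, 4 in WT KPC mice, 2 in FoxP1SkmKO controls and 1 in FoxP1SkmKO KPC mice. Of all genes tested, 18.7%, 11%, 6.4% and 5.99% were called in these combinations, so the share over all genes fell in the same order. *Usp2* was called in all 4 combinations. It peaked at CT35.0 (SE 0.377 h) in WT controls and CT33.5 (SE 0.471 h) in FoxP1SkmKO KPC mice, with a basal level of 40.4 and 43.3 FPKM. *Prkaa2*, the catalytic subunit of AMPK that prevails in muscle, passed in WT controls (adjusted p = 0.000149) and WT KPC mice (adjusted p = 0.0415).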

How the data were processed

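Poly-A RNA of 48 tibialis anterior muscles was sequenced, and groups were taken from the sample labels. Read counts per gene were deposited as whole numbers, on the build mm39. The methods name STAR and HTSeq, while the processing notes list HISAT2 2.0.5 and DESeq2 1.20.0. FPKM values, which scale fragments by gene length and depth, were computed by the authors. The authors also deposited a normalized signal, counts divided by DESeq2 size factors in each table of 4 libraries, and their own fold changes and p-values, none of which were used. Counts of genes missing from a table were recovered from FPKM (28541 values of 1 read, 0.0035% of reads).

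Counts were filtered by expression, scaled by TMM and tested with edgeR 4.0.16 (R 4.3.3) across 24 groups, with Benjamini-Hochberg adjustment over 15637 genes. DESeq2 1.42.0 was an alternative. FPKM were fitted with a 24 h curve (numpy 2.4.6, scipy 1.17.1), with a likelihood ratio test and a variance for each group for differences. Both were tested on simulated data. The members, lists and motifs were chosen with earlier results of these data known. Named genes were *Cry1*, *Cry2*, members of lists of 17 core clock partners and 13 regulators of cryptochrome protein, and the 5 genes most alike to each cryptochrome. *Dbp* and *Arntl* were named as most opposite after their values were seen. P-values set differences against the spread between mice, which edgeR estimates in part across genes. In the fits of the 24 h curve, departures of the times from the curve add to that spread. Depth was 14480867 to 20787784 reads per library, which at 206 to 521 reads of *Cry1* limits the precision of single mice. Replicate numbers showed no general pairing of mice across groups (median correlation of deviations -0.016 over 276 pairs of groups). The correlation ranged from -0.385 to 0.428 and was over 0.1 in 42 pairs. A median cannot exclude a pairing shared by some of the groups. Strandedness of the libraries is not given in the sources used here, so overlapping antisense reads cannot be told apart. The values of 1 regulator on the list are not reported here.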

Additional observations from a re-analysis of the deposited data

How the results depend on the processing

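Alternatives changed the scaling, the filter on low counts, the tool, the libraries in the fit, the log scale, a block for the replicate number, single mice and, added after seeing the data, CT26. Each main result was compared with each alternative that applied to it, leaving single mice aside. In 132 of these comparisons the result kept its direction and side of the threshold, or its count stayed within 1.5 times. In 4 a count moved by over 1.5 times, in 3 the threshold was lost and in 2 the sign changed. The 3 losses were all of the rhythm of *Cry1* in FoxP1SkmKO controls. The rhythm of *Cry1* in FoxP1SkmKO controls (n = 12, p = 0.00912) had p = 0.0114 on TMM-scaled CPM and 0.0237 without CT26, and 0.00329 to 0.0256 without single mice. The cause was not tested. With the replicate block, although replicate numbers did not pair the mice, it had p = 0.0147 (n = 12) and the basal difference of *Cry2* with tumor in FoxP1SkmKO mice 0.0583, and no other call on the cryptochromes was lost. Of the rhythm differences with p under 0.05, those with tumor went from 3 to 0 without CT26, and on both log2 scales they lost the basal difference of *Cry1* in WT mice and gained the peak shift of *Cry2* in FoxP1SkmKO mice. Those with genotype went from 1 to 2 on both log2 scales, to 0 without CT26 and to between 1 and 2 without single mice.

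Values that passed no test changed sign as follows. Without CT26 the tumor effect on *Cry2* in WT mice was -0.0108 and its genotype effect in KPC mice -0.0406 (log2), its basal difference with tumor in WT mice -0.0587 FPKM and with genotype in KPC mice -0.00182 FPKM, and its peak shift with tumor in WT mice 0.193 h. The peak shift of *Cry1* with genotype in KPC mice was then 0.0283 h and its amplitude difference -0.0789 FPKM, which was -0.00531 and -0.00749 on the log2 scales with 1 and 0.1 added. The amplitude difference of *Cry2* with genotype in controls was 0.0141 and 0.0185 on these scales, 0.123 on TMM-scaled CPM and 0.199 FPKM without CT26. The tumor effect on *Cry2* at CT34 in WT mice was -0.0156 without a filter, -0.00902 with RLE size factors, -0.0135 with its 4 libraries alone, -0.0110 without CT26 and -0.00907 in DESeq2.

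Without single mice, the log2 tumor effect on *Cry1* in FoxP1SkmKO mice ranged from -0.178 to 0.0583 at CT22, -0.394 to 0.109 at CT26, -0.148 to 0.0404 at CT30, -0.197 to 0.112 at CT38 and -0.0240 to 0.0610 on average. In WT mice it ranged from -0.0556 to 0.127 at CT18, -0.0614 to 0.0814 at CT22 and -0.188 to 0.251 at CT30. That on *Cry2* ranged in FoxP1SkmKO mice from -0.0155 to 0.114 at CT18, -0.0590 to 0.0919 at CT34 and -0.0737 to 0.0176 at CT38, and in WT mice from -0.0628 to 0.0354 at CT18, -0.365 to 0.130 at CT22, -0.0476 to 0.0156 at CT34, -0.00946 to 0.116 at CT38 and -0.0183 to 0.0641 on average. The genotype effect in KPC mice ranged from -0.0455 to 0.0431 for *Cry1* and -0.0257 to 0.0567 for *Cry2*. The amplitude of *Cry1* differed by -0.299 to 0.000459 FPKM with tumor in WT mice and -0.118 to 0.185 with genotype in KPC mice. Its basal level differed by -0.00412 to 0.237 FPKM with tumor in FoxP1SkmKO mice and -0.0834 to 0.133 with genotype in KPC mice, and its peak by -0.639 to 0.260 h with genotype in KPC mice and -1.32 to 0.108 h in controls. The amplitude of *Cry2* differed by -0.323 to 0.0616 FPKM with tumor in FoxP1SkmKO and -0.219 to 0.280 in WT mice, and by -0.416 to 0.0258 with genotype in KPC mice and -0.255 to 0.122 in controls. Its basal level differed by -0.0562 to 0.189 FPKM with genotype in KPC mice.

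Over all genes, the tumor effect in WT mice was called in 280 genes, in 794 without a filter and 132 without CT26. In FoxP1SkmKO mice it was 67, 527 without a filter, 137 in DESeq2 and 14 with 24 libraries alone. The difference between genotypes was 0 and 104 without a filter. The genotype effect was 538 and 933 without a filter in controls, and 50, 470 without a filter and 101 in DESeq2 in KPC mice. At single times other than CT26 in WT mice, between 0 and 6 genes were called for tumor, between 87 and 596 without a filter and between 0 and 65 in DESeq2. With 2 mice per group and time, and 1 cycle, the spread between mice limits what single times can show.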
